A study of Danio rerio with 10 samples.

Results

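The transcripts described here encode the proteins of the cytosolic ribosome. They were taken by name from a count table of small RNA libraries: every gene whose symbol starts with rpl or rps and a number, or is rpsa, rplp0, rplp1 or rplp2 with any suffix, without the S6 kinases (rps6k) and rps19bp1. Of 84 such genes, 80 reached 10 counts over all fish, 46 of the large and 34 of the small subunit, out of 3719 features that reached 10 counts. The gene nearest to this minimum from above was rplp2, with 21 counts in all, and the nearest from below was RPL7L1, with 4. The other 3 genes below it had 0 counts.

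The ribosome has a large subunit, which joins amino acids, and a small subunit, which reads the messenger RNA, and each is built from ribosomal RNA and many small basic proteins. The messenger RNAs of these proteins are among the most abundant in growing cells and begin with a terminal oligopyrimidine (TOP) tract, through which mTOR signalling sets their translation. Many of the genes also carry small nucleolar RNAs (snoRNAs), which guide the modification of ribosomal RNA, within their introns. Liver makes large amounts of secreted protein, and increased ribosome production is a known feature of many tumours.

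Livers came from 5 ABC zebrafish, Tg(fabp10a-pt-beta-cat), and from 5 wild-type, non-transgenic siblings (WT), all male and 4 months old. In ABC, the hepatocyte promoter of fabp10a drives an activated β-catenin, so the transgene acts in hepatocytes, and hepatocellular carcinoma was diagnosed by histology. One small RNA library was made per fish, and the replicate numbers run from 1 to 5 in WT and from 6 to 10 in ABC. The libraries were built to profile microRNAs, so a count on a ribosomal protein gene is a read from a short fragment, not a full messenger RNA, and the counts do not compare levels between genes per length.

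Libraries held 1236439 to 2408262 counts in ABC and 1423307 to 2609547 in WT. Features other than microRNA genes took 5.49 to 6.94% of them in ABC and 2.54 to 5.32% in WT. Of 16 hepatocyte markers, 15 were matched in the table and all 15 had counts. Together they took 1.83% of the non-microRNA counts in ABC replicate 8 and 0.477 to 1.43% in the other ABC fish, against 10.5% in WT replicate 5 and 2.36 to 4.76% in the other WT fish. Compared to WT, 9 of the 15 were called lower in ABC. Markers of exocrine pancreas, of which 12 were tested and all 12 called lower in ABC, took 0.00788 to 0.0220% in ABC, against 1.97% in WT replicate 5 and 0.128 to 0.356% in the other WT fish. In bulk liver, fewer cells of a type and less RNA per cell cannot be told apart. The marker calls above are from all 10 fish. Without ABC replicate 8, 12 of the 15 hepatocyte and all 12 exocrine pancreas markers were called lower. A fit without WT replicate 5 is not given for the markers. ABC replicate 8 and WT replicate 5 stood apart from the other fish of their group in many of the transcripts described here. For these transcripts the main results are given with and without ABC replicate 8, and some also without WT replicate 5.

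RPL13A held far more counts than most of the set. It encodes a large subunit protein that in human myeloid cells also takes part in translational silencing. Of the 53459 ribosomal protein counts, 21476 were on RPL13A, or 40.2%. Its span holds 4 snoRNA genes in RefSeq's annotation, and the part of snoRNA fragments in its counts was not tested. RPL13A had 2745, 3303, 2176, 2159 and 1643 counts in ABC replicates 6 to 10, against 1237, 2065, 1951, 2253 and 1944 in WT replicates 1 to 5. The ABC and WT fish overlapped, and neither ABC replicate 8 nor WT replicate 5 was the highest of its group. After TMM scaling, RPL13A averaged 1180 ± 273 counts scaled to library size (CPM) in ABC and 1253 ± 394 in WT (SD, n = 5 each), with a log2 fold change (L2FC) of -0.09 ± 0.45 (SE) and an adjusted p of 0.952. This p-value is from edgeR's quasi-likelihood test over all 3719 features with Benjamini-Hochberg adjustment, as are all adjusted p-values below unless another fit is named.

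Of the 80 transcripts, 78 had fewer than 2000 counts in all, and their totals over the 10 fish lay between 21 and 1477 counts (RPL4). This bound of 2000 counts was chosen after the data were seen. The median total over all 80 was 94.5 counts, 43 had fewer than 100 and 56 had a median below 10 counts per fish, so most single genes had counts too low to show moderate differences.

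The ribosomal protein share of the non-microRNA counts was similar in most fish of a group. It was 5.43, 5.50, 11.8, 4.96 and 4.76% in ABC replicates 6 to 10, against 6.40, 7.19, 6.38, 6.24 and 6.38% in WT replicates 1 to 5. The means were 6.49 ± 2.99% in ABC and 6.52 ± 0.380% in WT (SD, n = 5 each). Without ABC replicate 8, every ABC share lay below every WT share. The 95% Wilson intervals reached at most 0.250 percentage points to either side and cover counting error only. The 78 transcripts with fewer than 2000 counts alone took 0.686, 0.683, 8.13, 0.751 and 0.764% in ABC, against 0.950, 0.824, 0.497, 0.521 and 2.60% in WT. In 8 of the 10 fish these 78 transcripts were thus below 1% of the non-microRNA counts, and ABC replicate 8 and WT replicate 5 were above the rest. Without those fish the groups overlapped, with means of 0.721 ± 0.0427% in ABC and 0.698 ± 0.224% in WT (SD, n = 4 each). The 78 transcripts made up 68.8% of the ribosomal protein counts in ABC replicate 8 and 12.4 to 16.0% in the other ABC fish, against 40.7% in WT replicate 5 and 7.79 to 14.8% in the other WT fish. Of the whole library, microRNAs included, the 80 transcripts held 0.416 ± 0.219% in ABC and 0.213 ± 0.0751% in WT. Without ABC replicate 8 the ABC mean was 0.319%. With the most abundant microRNA gene left out of the totals, the means were 0.676% in ABC and 0.669% in WT. No test is given for these shares, which are sums over the chosen genes.

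**Figure D1:**
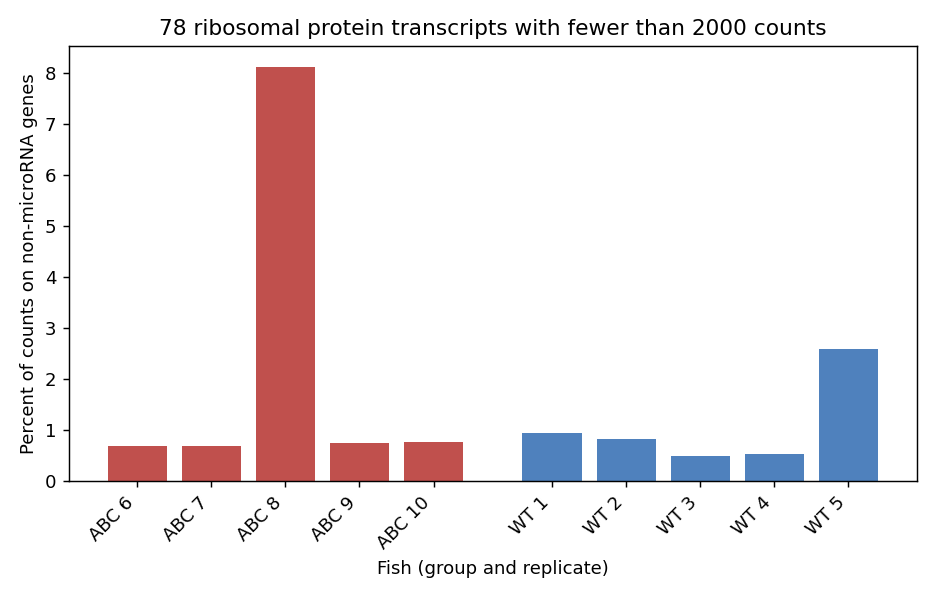
Percent of the counts on non-microRNA genes held by the 78 ribosomal protein transcripts with fewer than 2000 counts in each fish, ABC replicates 6 to 10 in red at the left and WT replicates 1 to 5 in blue at the right. They reach 8.13% in ABC replicate 8 and 2.60% in WT replicate 5 and stay below 1% in the remaining 8 fish.

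The high levels of these 2 fish ran through most of the set. The median CPM over the 78 transcripts was 3.80, 3.94, 10.04, 4.38 and 3.79 in ABC replicates 6 to 10, against 2.30, 3.04, 2.30, 2.04 and 7.72 in WT replicates 1 to 5. ABC replicate 8 had the highest CPM of the 10 fish for 47 of the 80 transcripts (58.75%), while it was the highest fish for 14.1% of all 3719 features. WT replicate 5 was the highest for 22 of the 80 (27.5%), against 16.0% of all features. In ABC replicate 8, 22 transcripts lay over 5 times the median of the other 4 ABC fish and 13 over 10 times. The 13 were RPL22L1 (81.4 times), RPS3A (77.9), RPL5 (69.4), RPS26 (67.0), RPS12 (37.9), RPL4 (36.9), RPL10 (33.0), RPS9 (26.2), rps3 (23.6), rpl7a (23.4), RPL10A (16.8), rps20 (13.7) and RPS6 (13.1). The excess was unequal, since in the same fish the stalk protein transcript RPLP0 had 28 counts, within the 24 to 41 of the other ABC fish.

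**Figure D2:**
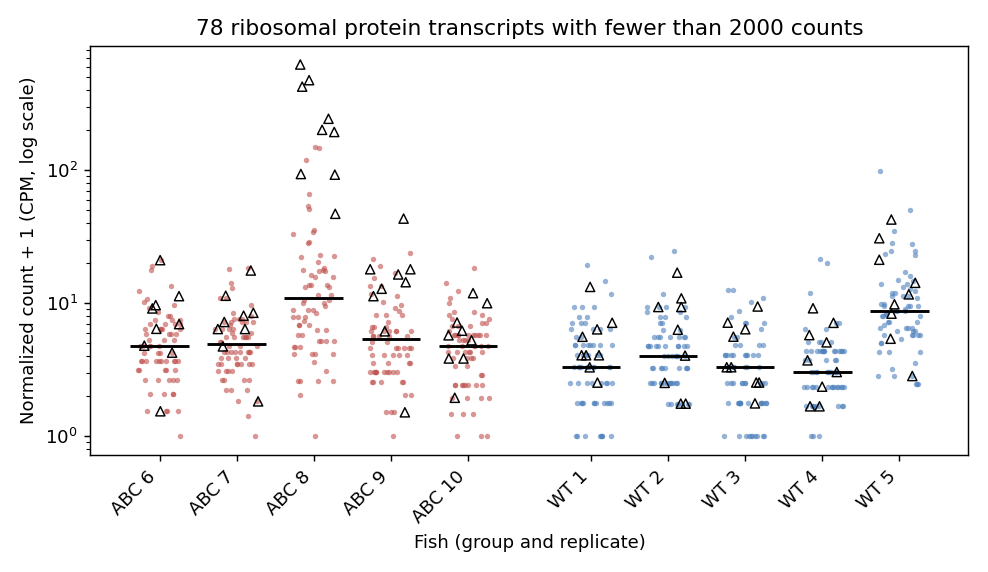
CPM plus 1 on a log axis for the 78 transcripts with fewer than 2000 counts in each fish, ABC left of WT, with bars at the medians and open triangles for the 9 transcripts called higher in ABC. The medians of ABC replicate 8 (10.04 CPM) and WT replicate 5 (7.72 CPM) lie above those of the other fish of their groups, and the triangles are spread far up in ABC replicate 8.

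Compared to WT, 9 of the 80 transcripts (11.25%) were called higher in ABC and 0 lower. A call required an adjusted p below 0.05 together with an L2FC of 0.5 or more in size. Over all 3719 features, 4.36% were called higher and 3.41% lower, 7.77% in either direction, and over those other than microRNA genes 3.71% higher and 3.17% lower. At an unadjusted p under 0.05 the counts were 15 higher and 0 lower. The share of all features at that threshold was not counted, so the unadjusted counts here and below are a description. All 9 calls were lost when ABC replicate 8 was left out, where 0 of the 80 were called in edgeR, against 9.98% of all features (5.78% higher and 4.19% lower), and 4 had an unadjusted p under 0.05. DESeq2 called 0 of the 80, with and without that fish. Of all 3719 features it called 63 higher (1.69%) and 91 lower with all 10 fish, and 189 in either direction without ABC replicate 8. With all 10 fish it returned no p for 15 of the 80, all 9 included, so for those 9 the lack of a call is not a test result. Of the rest, 0 had an unadjusted p under 0.05 there. The split of calls over all features depended on the scaling, with 162 higher and 127 lower after TMM over all features, 246 and 66 by library total alone and 52 and 87 after TMM over the microRNA genes alone.

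Of the 9, 4 belong to the large subunit. RPL5, which with RPL11 and an rRNA forms a particle that can hold back the p53 regulator MDM2, had the largest difference. Its more abundant row (ENSDARG00000020197) had 11, 18, 895, 82 and 13 counts in ABC replicates 6 to 10, against 7, 7, 7, 4 and 29 in WT replicates 1 to 5. The groups overlapped only through WT replicate 5, and the L2FC was 4.14 ± 0.76 (SE; adjusted p = 6.43e-05), or 1.34 (adjusted p = 0.120) without ABC replicate 8. RPL4, a protein that reaches into the tunnel through which the new chain leaves, had 37, 40, 1174, 33 and 23 counts in ABC, against 16, 21, 11, 9 and 113 in WT. The L2FC of RPL4 was 3.00 ± 0.70 (adjusted p = 0.00242), and -0.09 (adjusted p = 0.958) without ABC replicate 8. RPL10, needed for the last steps that make the large subunit ready for translation, had 10, 15, 364, 33 and 9 counts in ABC, against 6, 11, 2, 3 and 36 in WT. Its L2FC was 2.86 ± 0.72 (adjusted p = 0.00484), or 0.40 (adjusted p = 0.776) without that fish. The transcript rpl7a, which encodes a protein on the outer face of the large subunit, had 19, 25, 458, 26 and 19 counts in ABC, against 8, 11, 8, 12 and 81 in WT. Its L2FC was 2.24 ± 0.67 (adjusted p = 0.0238), and -0.16 (adjusted p = 0.929) without that fish. In all 4 of these transcripts ABC replicate 8 and WT replicate 5 were the highest fish of their groups.

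The other 5 calls were small subunit transcripts. RPS12 had 16, 13, 378, 10 and 10 counts in ABC, against 3, 1, 2, 6 and 20 in WT (L2FC 3.69 ± 0.76, adjusted p = 0.000480). RPS3A, which encodes a protein near the exit of the messenger RNA channel, had 7, 17, 800, 30 and 6 counts in ABC, against 4, 13, 6, 7 and 55 in WT (L2FC 3.36 ± 0.77, adjusted p = 0.00168). Both were highest in ABC replicate 8, and without it their L2FC was 0.78 for RPS12 (adjusted p = 0.505) and -0.27 for RPS3A (adjusted p = 0.859). The transcript rps20, which encodes a protein of the small subunit head, had 15, 13, 175, 23 and 11 counts in ABC, against 2, 4, 3, 1 and 12 in WT, with an L2FC of 3.27 ± 0.71 (adjusted p = 0.000919). After scaling it was the 1 transcript of the 80 (1.25%) in which every ABC fish lay above every WT fish, a pattern that 4.14% of all features had. In 0 of the 80 did every ABC fish lie below every WT fish, as in 2.69% of all features, 6.83% being separated in either direction. Without ABC replicate 8 its L2FC was 1.57 (adjusted p = 0.0809), the lowest adjusted p of the set in that fit. RPS9, whose bacterial counterpart binds ribosomal RNA early in small subunit assembly, had 6, 9, 173, 20 and 6 counts in ABC, against 4, 2, 3, 2 and 24 in WT (L2FC 2.60 ± 0.71, adjusted p = 0.0115). RPS26, a protein at the messenger RNA exit, was counted in 2 rows, and the row ENSDARG00000037071 had 1, 2, 87, 1 and 2 counts in ABC, against 4, 1, 1, 1 and 5 in WT (L2FC 2.69 ± 0.80, adjusted p = 0.0239). Apart from ABC replicate 8 no fish had more than 5 counts in that row, and its L2FC without that fish was -0.95 (adjusted p = 0.601), while that of RPS9 was 0.43 (adjusted p = 0.767).

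**Figure D3:**
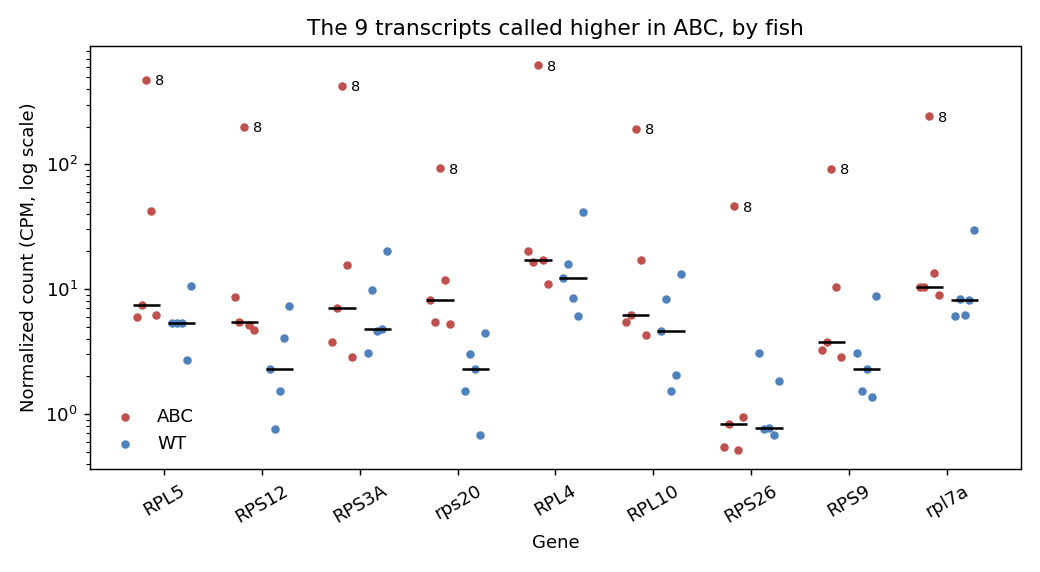
CPM on a log axis of the 9 transcripts called higher in ABC, 1 point per fish, ABC left of WT, with bars at the group medians. In every one the ABC point at the top is replicate 8, and rps20 is the 1 transcript whose groups do not overlap.

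Some abundant transcripts that were not called showed the same 2 fish, while RPL13A, described above, did not. RPL10A, a large subunit protein, had 16, 21, 276, 28 and 15 counts in ABC, against 18, 11, 9, 16 and 75 in WT (L2FC 1.43 ± 0.63, adjusted p = 0.169, and -0.50, adjusted p = 0.695, without ABC replicate 8). RPS2, which encodes a small subunit protein at the messenger RNA entry, had 33, 42, 95, 44 and 16 counts in ABC, against 24, 31, 13, 28 and 266 in WT (L2FC -0.56 ± 0.58, adjusted p = 0.681). RPS2 differs from the 9 in that WT replicate 5 was its highest fish, and its L2FC without WT replicate 5 was 0.38 (adjusted p = 0.770). RPS6, the S6 kinase substrate, had 21, 13, 224, 31 and 14 counts in ABC, against 11, 28, 12, 30 and 65 in WT (L2FC 0.91, adjusted p = 0.444, and -0.77, adjusted p = 0.471, without ABC replicate 8). RPS3, counted as rps3, is a small subunit protein that also acts at the entry channel. It had 10, 17, 279, 40 and 10 counts in ABC, against 8, 9, 6, 5 and 73 in WT (L2FC 1.90, adjusted p = 0.0620). Without ABC replicate 8 the L2FC of rps3 was -0.076 (adjusted p = 0.970), and without WT replicate 5 it was 2.80 and called (adjusted p = 0.0228), as it was in 4 of the 10 fits that left out 1 fish.

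Stalk transcripts, whose proteins form the lateral arm that recruits elongation factors, were not among the calls. RPLP0 had 37, 41, 28, 24 and 28 counts in ABC, against 14, 11, 15, 9 and 93 in WT (L2FC 0.10, adjusted p = 0.952). RPLP1 had 31, 29, 31, 17 and 37 counts in ABC, against 7, 5, 2, 8 and 61 in WT (L2FC 0.83, adjusted p = 0.476). In both, every ABC fish was above 4 of the 5 WT fish, and WT replicate 5 was above every ABC fish. Without WT replicate 5 the L2FC was 0.75 for RPLP0 (adjusted p = 0.477) and 1.80 for RPLP1 (adjusted p = 0.0688). The related rplp2l had 10, 11, 10, 10 and 3 counts in ABC, against 1, 2, 2, 2 and 27 in WT (L2FC 0.37, adjusted p = 0.816), and rplp2 had 1, 3, 3, 0 and 1 counts in ABC, against 0, 1, 3, 2 and 7 in WT (L2FC -0.89, adjusted p = 0.618). Without WT replicate 5 their L2FC was 1.69 for rplp2l (adjusted p = 0.135) and -0.47 for rplp2 (adjusted p = 0.838).

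Over the 80 transcripts, L2FC lay between -0.89 and 4.14 with a median of 0.56, beside 0.31 over all features and 0.31 over features other than microRNA genes. Of the 80, 65 were positive and 15 negative, and 52 lay above the median of all features. The median was 0.44 over the 46 large subunit and 0.68 over the 34 small subunit transcripts. Without ABC replicate 8 the median was 0.05, beside 0.24 over all features, and 28 of the 80 lay above that value. Without WT replicate 5 it was 1.09, beside 0.48, and without both fish 0.54, beside 0.46. The ribosomal protein median was thus above that of all features with all 10 fish and below it without ABC replicate 8.

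**Figure D4:**
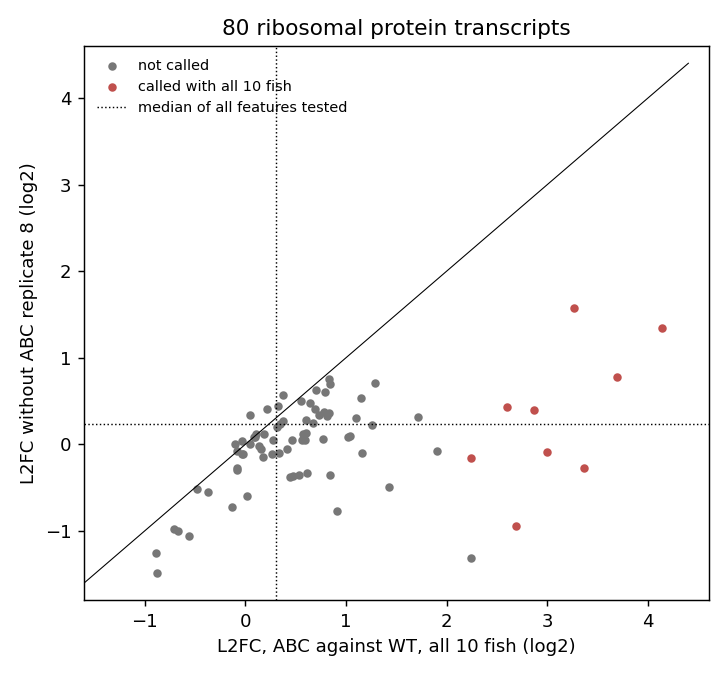
L2FC of ABC over WT of the 80 transcripts with all 10 fish (horizontal axis) and without ABC replicate 8 (vertical axis), with called transcripts in red, equal values on the diagonal and the medians of all features dotted. The median is 0.56 with all fish and 0.05 without that fish, and all 9 calls are lost.

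With ABC replicate 8 left out, 4 transcripts had an unadjusted p under 0.05. RPL5 and rps20 were higher in ABC, as above. RPS2 had an L2FC of -1.06 (adjusted p = 0.223) and RPL24, a large subunit protein at the interface of the subunits, of -1.49 (adjusted p = 0.121). RPL24 had 1, 4, 15, 4 and 9 counts in ABC, against 6, 8, 0, 3 and 44 in WT. With all fish its L2FC was -0.88 (adjusted p = 0.498), and without WT replicate 5 it was 0.046 (adjusted p = 0.972). With WT replicate 5 left out as well, a comparison chosen after the data were seen, 3 of the 80 (3.75%) were called higher, beside 5.06% of all features. These were rps20 (L2FC 1.98, adjusted p = 0.0217), RPLP1 (1.75, adjusted p = 0.0231) and RPL5 (1.70, adjusted p = 0.0252).

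Gene pairs of the same family were not raised to the same degree in ABC replicate 8. The second RPL5 row (ENSDARG00000015862) had 7, 3, 32, 11 and 7 counts in ABC, against 3, 4, 3, 3 and 30 in WT (L2FC 0.47, adjusted p = 0.751). The second RPS26 row (ENSDARG00000030408) had 3, 2, 12, 5 and 0 counts in ABC, against 0, 5, 2, 2 and 4 in WT (L2FC 0.44, adjusted p = 0.812). In both families ABC replicate 8 was raised far more in one row than in the other. The second rows were also highest in ABC replicate 8 after scaling. They lay at 4.75 (RPL5) and 5.16 times (RPS26) the median of the other ABC fish. Without ABC replicate 8, the L2FC was -0.36 for the second RPL5 row (adjusted p = 0.825) and -0.38 for the second RPS26 row (adjusted p = 0.859). RPL22L1, the paralog of RPL22, had 0, 1, 32, 1 and 0 counts in ABC, against 0, 1, 0, 1 and 4 in WT (L2FC 2.24, adjusted p = 0.113). RPL22 itself had 4, 6, 5, 4 and 4 counts in ABC, against 3, 3, 0, 2 and 13 in WT (L2FC -0.04, adjusted p = 0.982). So RPL22L1 reached 32 counts in ABC replicate 8 and at most 4 in any other fish, while RPL22 had 5 there. The L2FC of RPL22L1 was -1.31 without ABC replicate 8 (adjusted p = 0.564), and it was called in the fits without ABC replicate 6, 7 or 10 (adjusted p = 0.0342 to 0.0385). The pair rps27.1 and rps27.2, which encode a zinc-binding small subunit protein, had L2FC of -0.03 (adjusted p = 0.982) and 0.80 (adjusted p = 0.626). Counts of near-identical copies are uncertain, since how reads with several matches were counted is not given in the sources used here.

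The naming rule misses RACK1 and FAU, which also encode ribosomal proteins, and 0 of these 2 were called in edgeR, with 1 at an unadjusted p under 0.05. RACK1, a scaffold protein on the small subunit, had 22, 38, 223, 49 and 22 counts in ABC, against 21, 6, 7, 6 and 98 in WT (L2FC 1.42, adjusted p = 0.163). FAU, which is made as a fusion to a ubiquitin-like protein, had 3, 12, 19, 5 and 2 counts in ABC, against 5, 8, 2, 1 and 20 in WT (L2FC 0.00, adjusted p = 0.999). After scaling, both were highest in ABC replicate 8. Without that fish the L2FC was 0.22 for RACK1 (adjusted p = 0.883) and -0.64 for FAU (adjusted p = 0.638). Without WT replicate 5, RACK1 was called higher, with an L2FC of 2.26 (adjusted p = 0.0401).

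Small nucleolar RNA genes lie within some of these genes. By RefSeq's zebrafish annotation (GRCz12tu), 77 of the 80 could be matched, and 20 of the 77 span at least 1 snoRNA gene. Those 20 held 83.9% of the ribosomal protein counts, and 38.1% of the counts of the 78 transcripts with fewer than 2000 counts. Of the 15 most abundant transcripts 9 span a snoRNA gene, among them RPL13A with 4, RPL4 with 7, rpl7a and rps3 with 4 each and rps20 with 1, against 11 of the other 62. The median total was 165.5 counts with a snoRNA gene and 88 without, and the median L2FC was 0.65 and 0.46. Without ABC replicate 8 these medians were 0.11 and 0.049. Called were 5 of the 20 that span a snoRNA gene and 4 of the 57 that do not, and all 9 calls were lost without ABC replicate 8. In the human genome SNORD18 genes lie within RPL4, and the most abundant SNORD18 row here (ENSDARG00000080636) had 448, 461, 404, 1200 and 377 counts in ABC, against 99, 177, 229, 237 and 132 in WT. ABC replicate 9 had the most counts in that row, and ABC replicate 8 had the most in RPL4. All snoRNA and Cajal body RNA genes together took 13.5% of the non-microRNA counts in ABC replicate 8 and 14.8 to 22.9% in the other ABC fish, against 14.2% in WT replicate 5 and 14.4 to 18.3% in the other WT fish. The part of snoRNA fragments in the counts of these genes was not tested. The spans of 13 transcripts also overlap another protein-coding gene, among them the called RPS9, RPS12 and rps20. Reads from such a pair cannot be told apart without the strand setting of the counting.

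Calls among genes that work with the ribosome are given beside the share of all features, 4.36% higher and 3.41% lower. Of 7 translation elongation factors tested, 1 was called higher and 0 lower (median L2FC 0.35). It was eef1a1l1, which brings charged tRNAs to the ribosome, with 83, 126, 1679, 167 and 86 counts in ABC, against 30, 50, 37, 27 and 300 in WT (L2FC 2.34, adjusted p = 0.00877, and 0.778 without ABC replicate 8). Of 22 initiation and poly(A)-binding factors, 1 was called higher and 0 lower (median 0.36). It was pabpc1a, a poly(A)-binding protein, with 10, 38, 1423, 51 and 15 counts in ABC, against 9, 13, 5, 14 and 53 in WT (L2FC 3.99, adjusted p = 0.000136, and 0.745 without ABC replicate 8). Both follow the ribosomal protein pattern, with the highest count in ABC replicate 8. After scaling, ABC replicate 8 was the highest of all fish for 3 of the 7 elongation factors and 7 of the 22 initiation and poly(A)-binding factors. WT replicate 5 was the highest for 2 and 5 of them. Over all features these shares were 14.1% for ABC replicate 8 and 16.0% for WT replicate 5. In 2 abundant translation factors ABC replicate 8 was instead the lowest of the ABC group. EEF1B2, an elongation factor subunit, had 395, 635, 145, 573 and 386 counts in ABC, against 163, 229, 221, 358 and 267 in WT, and the RNA helicase eif4a1a had 1114, 3619, 243, 869 and 454 in ABC, against 506, 785, 1666, 1463 and 643 in WT. Of 9 further ribosome-associated TOP transcripts, 0 were called in edgeR and 0 had an unadjusted p under 0.05 (median L2FC 0.50). Of 21 ribosome biogenesis genes, which include nucleolar proteins and processing factors, 0 were called and 3 had an unadjusted p under 0.05 (median L2FC 0.59). Of 7 genes of MYC and mTOR signalling, mych, a zebrafish myc family gene, was called higher, with 2, 9, 4, 8 and 8 counts in ABC, against 0, 1, 0, 0 and 2 in WT (L2FC 2.86, adjusted p = 0.0219). It was also called without ABC replicate 8. Of 2 β-catenin target genes tested, 0 were called in edgeR and 1 had an unadjusted p under 0.05. CCND1, the cyclin D1 gene, had 2, 4, 1, 4 and 10 counts in ABC, against 0, 0, 0, 1 and 1 in WT (L2FC 2.77, adjusted p = 0.0537), and was called higher without ABC replicate 8.

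Markers of other cell types were examined in the same fish. The 7 biliary and intestinal epithelium markers matched took 0.355% of the non-microRNA counts in ABC replicate 8 and 0.0935 to 0.116% in the other ABC fish, against 0.0912% in WT replicate 5 and 0.0374 to 0.0735% in the other WT fish. The keratins carried most of it, krt18a.1 with 171 counts in ABC replicate 8 and 40 to 74 in the other ABC fish, and krt8 with 112 counts and 36 to 47. Of 6 tested markers of this list, krt18a.1 and cldn15la were called higher in ABC with and without that fish. The cldn15la call rests on 2, 10, 1, 0 and 2 counts in ABC, against 0 in every WT fish. FABP2 went the other way, with 1, 1, 0, 1 and 0 counts in ABC, against 0, 5, 0, 2 and 4 in WT (L2FC -1.96, adjusted p = 0.216). In ABC replicate 8, cldn15la and epcam had 1 count each. Muscle markers took at most 0.00110% in ABC, against 0.0708% in WT replicate 5 and 0.00151 to 0.00925% in the other WT fish. The summed shares of hepatocyte, exocrine pancreas and muscle markers were thus all highest in WT replicate 5. By gene after scaling, 11 of the 15 hepatocyte markers were highest in that fish and 1 in ABC replicate 8. Erythrocyte, leukocyte and endothelium markers stayed at or below 0.0161% in every fish. The part of these cell types in the ribosomal protein counts was not tested.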

How the data were processed

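Small RNA libraries of 10 livers, 1 per fish, were used. The groups come from the genotype in the labels, and no replicate number is shared between them. According to the methods and the submitters' processing notes, the authors used a NEBNext kit for small RNA libraries, sequenced single reads of 50 bases, used GRCz10 for alignment and counted with miRBase. The notes name Novoalign and featureCounts without versions. Strand setting, annotation release and treatment of reads with several matches are not given in the sources used here. The authors deposited raw whole-number counts per Ensembl gene, without normalization, for 32266 genes. Symbols from a gene name table covered 26433 of them, and 272 are microRNA genes. All columns of per-sample values were used.

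The 3719 features that reached 10 counts over all fish, 185 of them microRNA genes, were tested by the quasi-likelihood F-test of edgeR 4.0.16, with limma 3.58.1, in R 4.3.3 (estimateDisp, glmQLFit, glmQLFTest), with TMM factors, ABC against WT without covariates, and Benjamini-Hochberg adjustment over all features. CPM are relative to the TMM-scaled library total, as edgeR's cpm gives them. SE is the size of the L2FC over the square root of F. Calls required an adjusted p below 0.05 together with an L2FC of 0.5 or more in size. DESeq2 1.42.0 was an alternative. Others were other scalings and filters, other call thresholds, summed paralogs, and each fish left out in turn. The tests set the ABC against WT difference beside the spread between fish, each being a separate animal. That spread was estimated with information shared over all features tested.

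Genes named with full values were the 10 most abundant, every called transcript, paralogs of 1 family and the ribosomal genes that the naming rule misses. RPS3, RPS6, RPL24, RPLP0, RPLP1, SNORD18, krt18a.1, krt8, cldn15la, epcam, FABP2 and the named translation factors, MYC and β-catenin genes were added after their values were seen. They describe a role, a call or an opposite direction. Some genes that this rule names are not reported here. The members and gene lists were chosen with earlier results of these data known. The list of mitochondrial ribosomal proteins was added after the data were seen, and of 3 tested 0 were called in edgeR, with 0 at an unadjusted p under 0.05. No statistic over the set of 80 was tested. RefSeq spans served only to find neighbouring and overlapping genes, and no coordinates or sequences are given.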

Additional observations from a re-analysis of the deposited data

Results flagged for a closer look

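Of 54 groups of 5 fish examined, 29 had a highest or lowest fish whose gap to the nearest other exceeded the 95% critical value of Dixon's test (0.71 of the group's range). Chance flags about 1 in 20 independent groups. These groups are not independent, since they share the same fish, the shares overlap, and many genes are among them because they were called with ABC replicate 8 included, so the number is a description. The separated fish was ABC replicate 8 in 17 groups and WT replicate 5 in 10.

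In ABC replicate 8 the separated values were 620 CPM for RPL4 (the other ABC fish 10.9 to 20.1), 473 for RPL5 (ENSDARG00000020197), 423 for RPS3A, 242 for rpl7a, 199.7 for RPS12, 192 for RPL10, 146 for RPL10A, 118 for RACK1, 92.5 for rps20, 91.4 for RPS9, 46.0 for RPS26 (ENSDARG00000037071), 16.9 for RPL22L1 and 16.9 for the second RPL5 row. The ribosomal protein share of non-microRNA counts in that fish (11.8%), the share of the 78 transcripts with fewer than 2000 counts (8.13%), their part of the ribosomal protein counts (68.8%) and the ribosomal protein share of the whole library (0.802%) were above the other ABC fish.

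In WT replicate 5 the separated values were 97.8 CPM for RPS2 (the other WT fish 9.98 to 23.6), 41.5 for RPL4, 29.8 for rpl7a, 11.0 for the second RPL5 row, 9.92 for rplp2l, 8.82 for RPS9 and 8.08 for rps27.1. The share of the same 78 transcripts (2.60%) and their part of the ribosomal protein counts (40.7%) were above the other WT fish, and the share of RPL13A (2.09%) was below them.

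Away from these 2 fish, rplp2l in ABC replicate 10 (1.42 CPM) was below the other ABC fish, and the ribosomal protein share of non-microRNA counts in WT replicate 2 (7.19%) was above the other WT fish.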

How the results depend on the processing

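No paired analysis was possible because the groups share no replicate numbers. As reported, 9 of the 80 transcripts were called higher, beside 162 of all 3719 features, and features called higher in other fits stand in parentheses. Called transcripts numbered 10 with upper-quartile factors (169) or TMM without microRNA and ribosomal protein genes (190). They were 8 by library total alone (246) or with paralogs summed (161 of 3713), and 6 at an adjusted p under 0.01 (63). With edgeR's filterByExpr, which tested 25 of the 80, they were 2 (84 of 481 features). They were 1 with TMM over microRNA genes alone (52) and 0 with DESeq2 (63), which returned no p for any of the 9. In alternatives chosen after the data were seen, they were 4 with edgeR's robust fit (199) and 3 without ABC replicate 8 and WT replicate 5 (188). The robust fit called rpl7a, rps20, RPS9 and rps3, the last not among the 9. With single fish left out, called transcripts numbered 0 without ABC replicate 8 (215) to 11 without ABC replicate 6, 7 or 10 (132 to 164). Of the 9, 6 were called in every such fit but that without ABC replicate 8 (RPL4, RPL5, RPL10, RPS3A, RPS12 and rps20). Of those 6, rps20 alone was called in the robust fit. Called lower were 0 in every fit run, beside 127 of all 3719 features as reported and 58 of 481 with filterByExpr. The median L2FC lay between 0.05 (without ABC replicate 8) and 1.09 (without WT replicate 5). Scaling moved the median of all features by 0.41 with library total alone and by -0.30 with TMM over microRNA genes alone, where the ribosomal protein medians were 0.89 and 0.15. The ABC minus WT difference in the ribosomal protein share of all counts was 0.203 percentage points, 0.106 to 0.238 with single fish left out, and 0.00666 when the most abundant microRNA gene was left out of the totals. The difference in the share of non-microRNA counts was -0.0245 points, and -1.36 to 0.408 with single fish left out. The cause of these shifts was not tested.

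Beside rps3, RPS6 and RPL24, described above, signs turned for these genes, none of which was called under the turned sign. With single fish left out, L2FC ran from -0.64 to 0.42 for FAU, -0.50 to 1.88 for RPL10A, -0.23 to 0.032 for RPL13A, -0.41 to 0.58 for RPL22, -1.31 to 3.01 for RPL22L1, -0.091 to 3.67 for RPL4, -0.36 to 1.32 for the second RPL5 row, -0.16 to 2.97 for rpl7a, -1.06 to 0.38 for RPS2, -0.38 to 0.85 for the second RPS26 row, -0.95 to 3.09 for the first, -0.31 to 0.99 for rps27.1, and -0.27 to 4.00 for RPS3A. Without both ABC replicate 8 and WT replicate 5, L2FC was -0.20 for FAU, -0.041 for RPL10A, 0.52 for RPL22, -0.50 for RPL22L1, -0.43 and -0.80 for the second and first RPS26 rows, and 1.09 for rps27.1. By library total alone it was 0.51 for RPL13A, 0.21 for RPL22 and 0.12 for rps27.1. With TMM over microRNA genes alone it was -0.37 for FAU and -0.34 for rplp2l, and with TMM without microRNA and ribosomal protein genes 0.013 for RPL22 and 0.021 for rps27.1. With upper-quartile factors it was 0.0020 for RPL22 and 0.038 for rps27.1. With DESeq2 size factors it was -0.044 for FAU, with all features of 1 or more counts -0.045 for FAU, and with DESeq2's test -0.023 for FAU. With paralogs summed it was -0.0057 for FAU. The summed pairs had 0.96 for RPL22 with RPL22L1, 0.11 for rplp2 with rplp2l and 0.28 for rps27.1 with rps27.2. Those are values of the pairs, not of single genes. Depth limits what single genes can show, since 56 of the 80 had a median below 10 counts per fish.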
